A study of Mus musculus with 16 samples.

Results

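The 10 genes described here, Adipoq, Lep, Retn, Cfd, Plin1, Cidec, Pnpla2, Lipe, Fabp4 and Car3, are markers of white fat cells. They were taken by symbol, through their mouse Ensembl identifiers, from 2 deposited tables of gene expression, of 55357 gene rows in back skin and 56953 in sorted hair follicle stem cells (HFSC), and all 10 were found in both tables. The series concerns G-protein-coupled receptor kinase 2 (GRK2) in the hair follicle and compares C57BL/6 mice labelled as control with mice labelled GRK2 eKO, written eKO below. The labels do not spell out eKO, and the promoter or cell type that drives the deletion is not given in the sources used here. Skin libraries, 5 per genotype, came from total RNA of back skin of mice aged 8 months, after selection for poly-A RNA. HFSC libraries, 3 per genotype, came from bulge cells sorted as CD34-positive and α6-integrin-positive, and their labels give 18 months where the design text of the series gives 8 months for both tissues. Libraries are named by genotype and replicate number. In skin that number follows the order of deposition and pairs nothing.

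White fat cells fill the lower dermis, around and below the hair follicles, and this dermal fat layer is known to thicken and thin over the hair cycle. A fat cell stores triglyceride in 1 large droplet whose surface proteins control access of lipases, takes up and hands on fatty acids through binding proteins, and secretes hormones that act on other tissues. Whole skin contains these cells. A sort for bulge stem cells is made to leave them out.

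Values are the authors' normalised read counts, that is gene reads divided by 1 size factor per library. Depth ran from 8213632 to 16383486 gene reads per library in skin and from 6428488 to 9387378 in HFSC. Counts of Grk2, the targeted gene, averaged 1298 ± 144 (SD, n = 5) for control and 1110 ± 93.8 (SD, n = 5) for eKO skin. In HFSC they were 139, 121 and 144 for control and 114, 122 and 104 for eKO libraries. It passed the threshold in neither tissue (limma adjusted p 0.343 and 0.501). Skin control 5 and eKO 3 were near 0 for the Y-linked gene Ddx3y, which in HFSC was lower in the eKO libraries, with a mean of 401 ± 38.0 (SD, n = 3), where control libraries had 1192 ± 20.8 (SD, n = 3). The labels do not say that the replicates are separate animals, so p-values measure the spread between these samples, which may be technical.

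The sequences just before the start sites of 4 of the genes are shown because they hold a match to the C/EBP core or the CCAAT box, among 4 motifs searched. RefSeq promoter windows (build GRCm38.p6, whereas the submitters' processing notes name GRCm39) were found for 8 of the 10 genes. Each line below gives the 250 bases before the start, 5′ to 3′ on the gene's own strand. Capitals mark TTGCNNAA, the core of the site bound by C/EBP factors, in Lep, Plin1 and Cidec, and CCAAT read on either strand, as ATTGG on the other, in Adipoq. The windows are chr6:29059971-29060220 on the plus strand for Lep, chr7:79732777-79733026 on the minus strand for Plin1, chr6:113434765-113435014 on the minus strand for Cidec and chr16:23146286-23146535 on the plus strand for Adipoq.
Lep: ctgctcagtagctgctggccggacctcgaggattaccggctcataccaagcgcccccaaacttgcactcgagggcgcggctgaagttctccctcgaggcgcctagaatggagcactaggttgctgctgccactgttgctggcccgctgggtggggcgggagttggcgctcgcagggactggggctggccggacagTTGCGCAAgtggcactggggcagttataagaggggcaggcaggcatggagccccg
Plin1: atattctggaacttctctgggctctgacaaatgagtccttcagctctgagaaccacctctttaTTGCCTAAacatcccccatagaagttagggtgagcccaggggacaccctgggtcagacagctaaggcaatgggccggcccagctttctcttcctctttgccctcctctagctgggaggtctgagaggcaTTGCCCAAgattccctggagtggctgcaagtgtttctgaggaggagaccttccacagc
Cidec: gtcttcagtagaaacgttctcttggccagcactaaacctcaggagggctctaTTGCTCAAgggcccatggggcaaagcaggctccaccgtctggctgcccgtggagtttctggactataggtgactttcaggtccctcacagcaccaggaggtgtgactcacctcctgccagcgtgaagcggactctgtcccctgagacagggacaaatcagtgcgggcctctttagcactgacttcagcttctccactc
Adipoq: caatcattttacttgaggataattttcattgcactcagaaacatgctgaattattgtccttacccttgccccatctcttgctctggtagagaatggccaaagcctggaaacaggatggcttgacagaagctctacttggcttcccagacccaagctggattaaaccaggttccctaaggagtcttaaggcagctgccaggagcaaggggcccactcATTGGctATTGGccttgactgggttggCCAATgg
The first base of the motif lay 55 bases before the start in Lep, 187 and 58 bases before it in Plin1, and 198 in Cidec. In Adipoq the motif lay 34, 27 and 7 bases before the start. Of 32851 RefSeq promoter windows of this length, 9.56% held TTGCNNAA and 33.8% held CCAAT on either strand, and of the 8 genes 3 held the former and 1 the latter. The DR1 element, of the kind bound by PPARG with RXR and searched on both strands as AGGTCA repeated after 1 base, was in 0.0335% of all windows and in 0 of the 8, and TATAAA in 12.4% and 0 of the 8. No match overlaps another in these windows, and a match describes letters only.

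Among the secreted products, the mRNA of adiponectin, encoded by Adipoq and a hormone made almost entirely by fat cells, differed widely between skin libraries of 1 genotype. Adipoq was at 4985, 819, 1518, 119 and 531 in control libraries 1 to 5 and at 3193, 2156, 463, 1100 and 2037 in eKO libraries 1 to 5. Control 1 was the highest and control 4 the lowest of all 10, and the genotypes overlapped. The ratio of highest to lowest was 41.7 within the control group and 6.90 within the eKO group. In whole tissue, fewer fat cells and less RNA per fat cell cannot be told apart.

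Lep, which encodes leptin, the hormone that reports fat stores to the brain, had the widest range of the set. It was at 10374, 692, 3925, 208 and 900 in the control libraries and at 10066, 5317, 594, 535 and 3032 in the eKO libraries, a spread of 49.8-fold and 18.8-fold. The 2 libraries numbered 1 stood at the top, and control 4 was again the lowest. Retn encodes resistin, a further fat cell hormone of mice. Its counts were the smallest, at 261, 27.8, 66.8, 13.1 and 41.8 in the control group and 213, 100, 29.5, 78.6 and 108 in the eKO group. Cfd encodes adipsin, the complement factor D secreted by fat cells. It was at 2343, 727, 1098, 144 and 653 in control and 2428, 848, 797, 1345 and 1664 in eKO libraries. For Cfd, controls 2, 4 and 5 lay below all 5 eKO libraries, and controls 1 and 3 lay among them.

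Plin1 and Cidec encode proteins of the droplet surface. Plin1, the perilipin that coats the droplet and holds back lipases, was at 4337, 508, 1435, 139 and 497 in the control group and 4251, 2163, 562, 1285 and 1908 in the eKO group. Cidec, which fuses small droplets into a large one, was at 5846, 1201, 1696, 167 and 738 in the control group and 5621, 2997, 836, 1304 and 2542 in the eKO group. For each gene the libraries numbered 1 were close to each other and highest. All 5 eKO libraries exceeded controls 2, 4 and 5 for Plin1, and controls 4 and 5 for Cidec. The spread was 31.2-fold for Plin1 and 35.0-fold for Cidec within the control group, against 7.56-fold and 6.72-fold within the eKO group.

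Pnpla2 and Lipe encode lipases. Pnpla2, which encodes the enzyme that removes the first fatty acid from triglyceride, had the narrowest range, at 1880, 1148, 1253, 572 and 1019 in the control group and 2226, 1689, 941, 1235 and 1928 in the eKO group, 3.28-fold and 2.37-fold. Unlike most of the set, this enzyme is made in many cell types. Lipe, which encodes hormone-sensitive lipase, the enzyme of the next step, was listed at 0 in all 16 libraries. That listing alone does not show absence from fat, which was not tested. In skin 28193 of the 55357 rows were at 0 in every library, G0s2, Agpat2 and Nnat of the fat cell lists used below among them. In GENCODE M21, Lipe lies across the opposite-strand gene 4732471J01Rik, which shares 918 of the 5886 exon bases of Lipe (15.6%). Counts of that gene averaged 55.6 ± 10.1 (SD, n = 5) for control and 67.1 ± 10.1 (SD, n = 5) for eKO skin. Whether the counting set those reads aside was not tested, and how it treated strand is not given in the sources used here. The other 9 genes of the set overlap no other gene of that annotation. Of the further genes listed at 0, G0s2 shares 0% of its exon bases with other genes, Agpat2 3% and Nnat 4.76%.

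The remaining genes carry fatty acids and carbon dioxide. Fabp4, the fatty acid binding protein of fat cells that is also made by capillary endothelium, was at 7453, 1834, 3801, 1369 and 3060 in the control group and 7631, 5108, 2222, 2707 and 4863 in the eKO group. Car3 encodes carbonic anhydrase 3, abundant in fat cells and also in slow skeletal muscle. It was at 31491, 19871, 18053, 7474 and 28586 in the control group and 31894, 22549, 4789, 19714 and 22234 in the eKO group. Car3 departed from the rest in that eKO 3, not control 4, was lowest. The summed count of a list of 12 skeletal muscle genes was lowest in eKO 3 too, at 23456. It was 52400 to 154016 in the control group and 79720 to 136343 in the other eKO libraries. Of that list 11 of 12 genes had reads in every skin library, such as Acta1, at 12481 in eKO 3 and up to 56528 in control 2. The remaining gene, Myh7, the myosin gene of slow fibres, had at most 4 reads in any skin library. The part of muscle in Car3 was not tested.

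**Figure D1:**
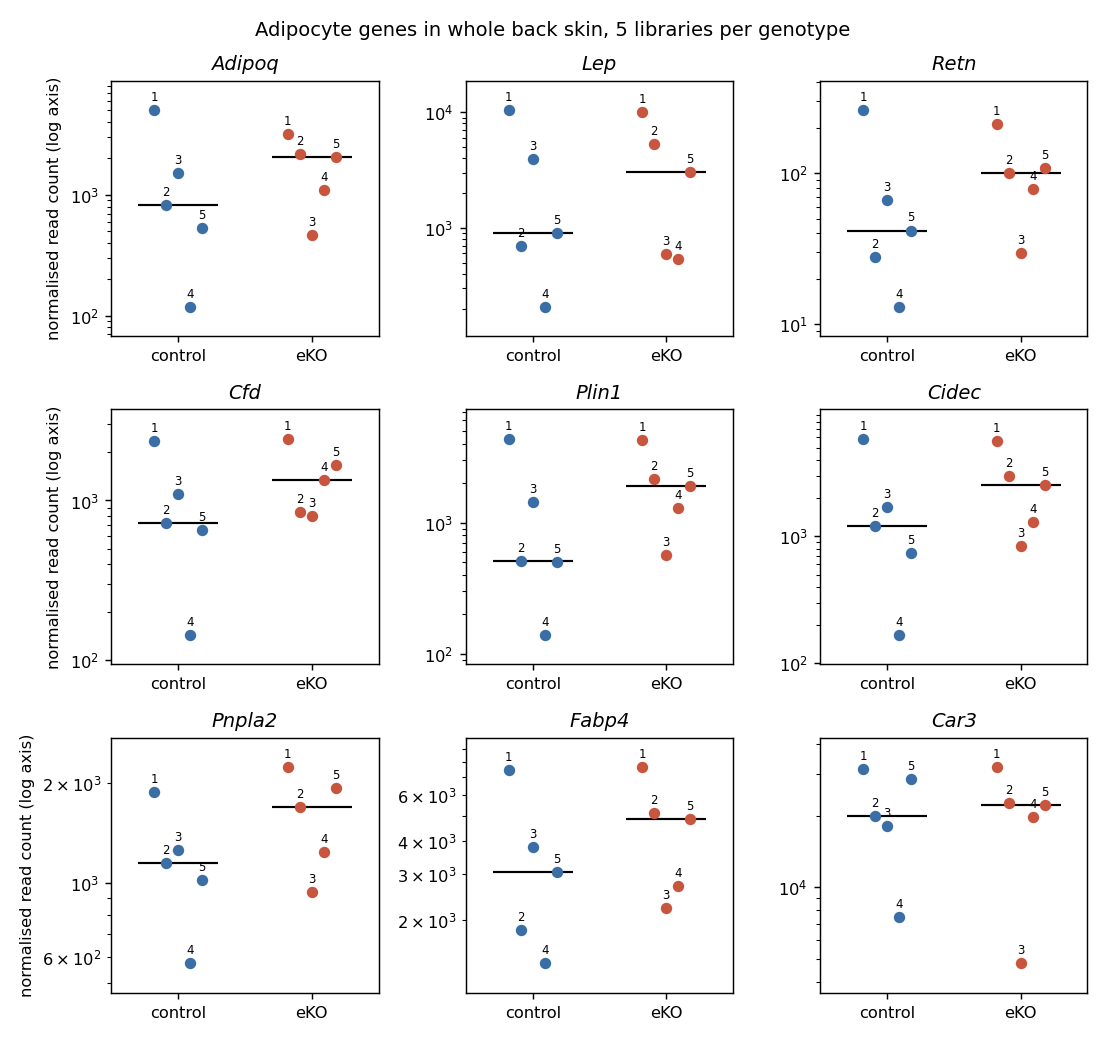
Normalised read counts (log scale) of the 9 genes with reads in the 10 skin libraries, control and eKO, 1 point per library with the replicate number and a line at the group median. The libraries numbered 1 sit near the top of both groups, control 4 is lowest for 8 of the 9 genes, and the groups overlap for each gene.

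Across the 9 genes with reads, control 1 was highest for 5 genes and eKO 1 for 4, and both were among the 3 highest libraries for all 9. Control 4 was lowest for 8 genes and among the 3 lowest for all 9, and eKO 3 was among the 3 lowest for 7. Summed over the 10 genes, RPM (a gene's reads scaled to the total gene reads of its library and multiplied by 1000000) ran from 939 in control 4 to 5799 in control 1, and from 1068 in eKO 3 to 5981 in eKO 1. Pearson correlations of log2(value + 1) between the genes, over 10 libraries, ran from 0.626 to 0.989 in the 36 pairs, with a median of 0.923. The lowest values belong to pairs with Car3, and the lowest of the 28 pairs without it was 0.782. These are descriptions, since all points come from the same 10 libraries and their size factors.

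Levels were compared between genes per length, here the union of all annotated exon bases of a gene, such as 4489 for Fabp4 and 922 for Cfd. A transcript can be shorter than this union, so the order below depends on this choice of length. By RPM divided by the kilobases of GENCODE M21 exon, Car3 had the highest median over the skin libraries, 624, and was highest in 10 of 10. Cfd followed at 90.1, Adipoq at 80.1, Cidec at 68.3, Fabp4 at 65.4, Lep at 49.7, Pnpla2 at 35.0 and Plin1 at 24.8, and Retn was lowest at 3.92 and in 10 of 10 libraries. The ranges of neighbours in this order overlapped throughout. Library by library, Car3 was above Cfd in 10 and Plin1 above Retn in 10 of 10, whereas Adipoq was above Cidec in 4 and Lep above Pnpla2 in 5.

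The first comparison of the design asks whether the adipocyte genes differed between eKO and control skin. None of the 9 tested genes passed the threshold (limma on log2(value + 1), Benjamini-Hochberg adjusted p under 0.05 over 16589 genes), where 0.374% of all genes did, and at an unadjusted p under 0.05 the count was also 0 of 9, beside 14.2% of all genes. The genotypes overlapped for all 9, where 4.18% of all tested genes did not overlap. The edgeR test and DESeq2 on recovered reads likewise called 0 of 9. The fitted values were positive for 8 genes and negative for 1, with a median log2 fold change of 0.83 against 0.00 for all genes tested. As the genes rose and fell together over these libraries, their signs are not separate observations.

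On that scale Adipoq was at 0.83 (SE 0.87, 95% interval -1.09 to 2.75, limma adjusted p 0.713). The value for Lep was 0.66 (SE 1.12, interval -1.82 to 3.13, limma adjusted p 0.829), and for Plin1, with the largest value, 1.17 (SE 0.83, interval -0.66 to 3.00, limma adjusted p 0.573). Each of these intervals spans both a fall and a rise of more than 1.5-fold, so a change of that size was not detectable against the spread between libraries. Cidec was at 1.00 (SE 0.83, limma adjusted p 0.636), Cfd at 0.88 (SE 0.63, limma adjusted p 0.577) and Retn at 0.84 (SE 0.73, limma adjusted p 0.652). The narrowest interval was that of Pnpla2, 0.48 (SE 0.31, interval -0.21 to 1.17, limma adjusted p 0.533), followed by Fabp4 at 0.48 (SE 0.47, limma adjusted p 0.693). Car3 was at -0.14 (SE 0.53, interval -1.30 to 1.03, limma adjusted p 0.933). With the skeletal muscle score as a covariate Car3 was at 0.49, and without eKO 3 it was at 0.33, neither called. Control 4 weighed on these values: without it Adipoq stood at 0.14, Plin1 at 0.57 and Lep at -0.03, none of them called. The arithmetic means of Adipoq lay closer together, 1594 ± 1963 (SD, n = 5) for control and 1790 ± 1049 (SD, n = 5) for eKO skin, and DESeq2 gave 0.16.

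**Figure D2:**
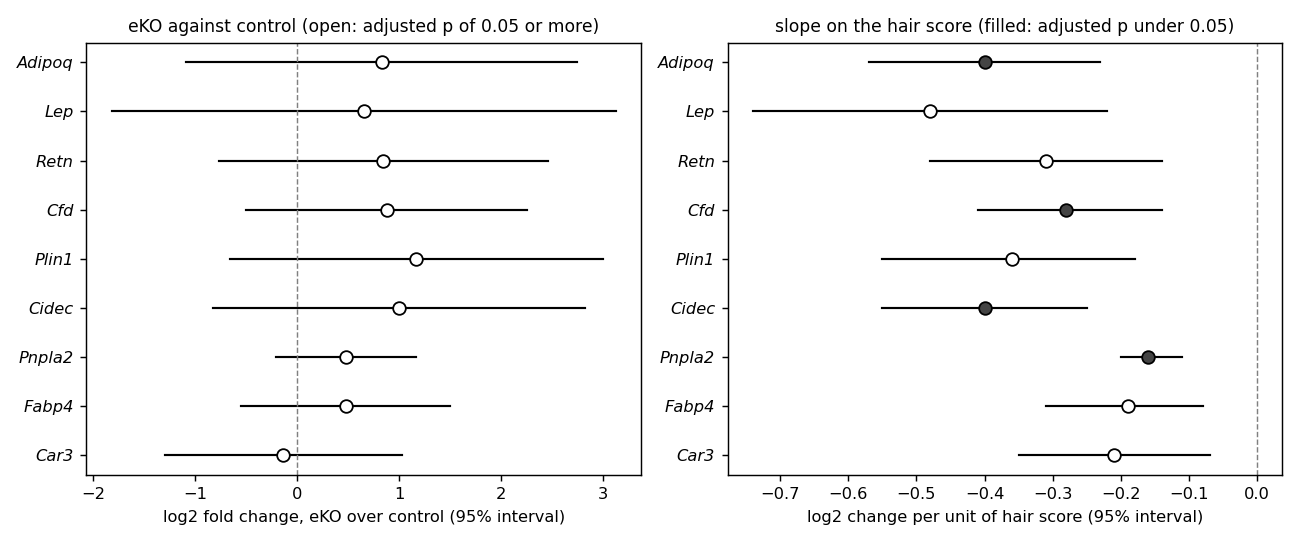
Genotype effect in skin (left, log2 fold change of eKO against control) and slope on the hair score (right, log2 change per unit of the score) for the 9 genes, with 95% intervals from limma. On the left no gene is called and each interval includes 0, and on the right all 9 slopes are negative and the 4 filled points (Adipoq, Cfd, Cidec and Pnpla2) are called.

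With the level of Adipoq as a covariate, the comparison asks how the other genes stood for a given amount of Adipoq RNA. None of the 8 was called, where 0.796% of all genes were. The values shrank to 0.39 for Plin1 (limma adjusted p 0.270), 0.21 for Cidec and 0.07 for Fabp4, and they were -0.34 for Lep and -0.53 for Car3. The ratio of Lep to Adipoq gives a similar reading within each library. It was 2.08, 0.846, 2.59, 1.74 and 1.69 in the control group and 3.15, 2.47, 1.28, 0.486 and 1.49 in the eKO group. The lowest ratio was in eKO 4 and the highest in eKO 1, so the eKO group enclosed the control group. The mean log2 ratio was 0.75 ± 0.61 (SD, n = 5) for control and 0.57 ± 1.04 (SD, n = 5) for eKO skin, a difference of -0.18 (two-sided exact permutation p 0.762, where the smallest possible is 0.00794). Without eKO 4 the difference was 0.22.

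**Figure D3:**
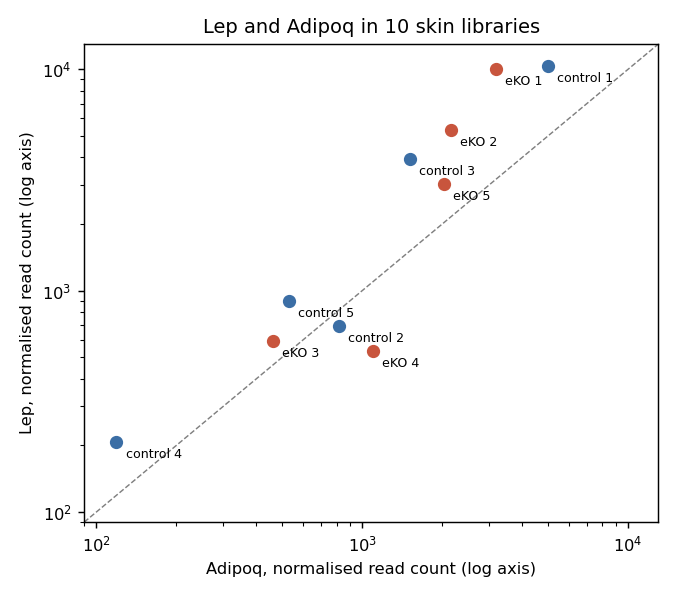
Lep against Adipoq, both as normalised read counts on log axes, in the 10 skin libraries. The genes rise together from control 4 (119 and 208) to control 1 (4985 and 10374), and eKO 4 lies below the other libraries in Lep for its level of Adipoq.

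The libraries also differed in the state of their hair follicles, read from a score of 15 genes, the mean of their log2(value + 1). Hair matrix and shaft is the name of their list and does not hold for each gene. The list includes Krt25, Krt27, Krt28, Krt71, Krt72 and Krt73, keratin genes of the inner root sheath. Tchh, also listed, was at 0 in all libraries and adds nothing to differences in the score. The score was 2.34, 4.46, 7.38, 11.44 and 7.99 in the control group and 2.85, 7.16, 10.03, 9.06 and 3.36 in the eKO group, so both genotypes held libraries with low and with high scores. The 2 libraries with the lowest scores, control 1 and eKO 1, were those with the most adipocyte RNA, and the 2 with the highest, control 4 and eKO 3, had the least by summed reads. Together these 15 genes took at most 1.53% of the reads of a library. Other hair genes are not in that share, so it does not measure all hair follicle RNA.

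In a limma fit of the slope on this score beside genotype, 4 of the 9 adipocyte genes were called, all downward, where 0.989% of all genes were called downward and 2.30% in either direction. All 9 slopes were negative, with a median of -0.31 log2 units per unit of the score against -0.003 for all genes. The slope was -0.16 for Pnpla2 (SE 0.02, limma adjusted p 0.00413), -0.40 for Cidec (SE 0.07, limma adjusted p 0.0151), -0.40 for Adipoq (SE 0.08, limma adjusted p 0.0269) and -0.28 for Cfd (SE 0.06, limma adjusted p 0.0454). Not called were Plin1 at -0.36 (limma adjusted p 0.0518), Retn at -0.31 (0.0633), Lep at -0.48 (0.0646), Fabp4 at -0.19 (0.0735) and Car3 at -0.21 (0.0967), the numbers in parentheses being limma adjusted p-values. At an unadjusted p under 0.05 there were 9 of 9, where 20.1% of all genes had one. The 9 genes rose and fell together over the same 10 libraries (median pairwise r 0.923), so these tallies are not 9 separate observations.

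Single libraries decided how many passed. The count was 1 of 9 without control 1, 1 without control 4, 2 without eKO 1 and 2 without eKO 3, and it was 8 without control 2. Leaving out control 5 and eKO 3 together also gave 1, an alternative chosen after seeing the data. With the keratin genes taken out of the score it was 7. Pnpla2 was called in each of these fits, with a limma adjusted p between 0.00150 and 0.0499, and every slope of the 9 genes stayed negative in them. Genes of other cells in whole skin also had mostly negative slopes, where 8713 of all 16589 genes had one. Slopes were negative for 8 of 9 dermal fibroblast, 11 of 11 skeletal muscle, 11 of 11 endothelial and 8 of 9 leukocyte genes. None of them was called, and the part of these cells in the slopes of the adipocyte genes was not tested. With the score as a covariate the genotype test again called 0 of 9, where 0.922% of all genes were called.

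**Figure D4:**
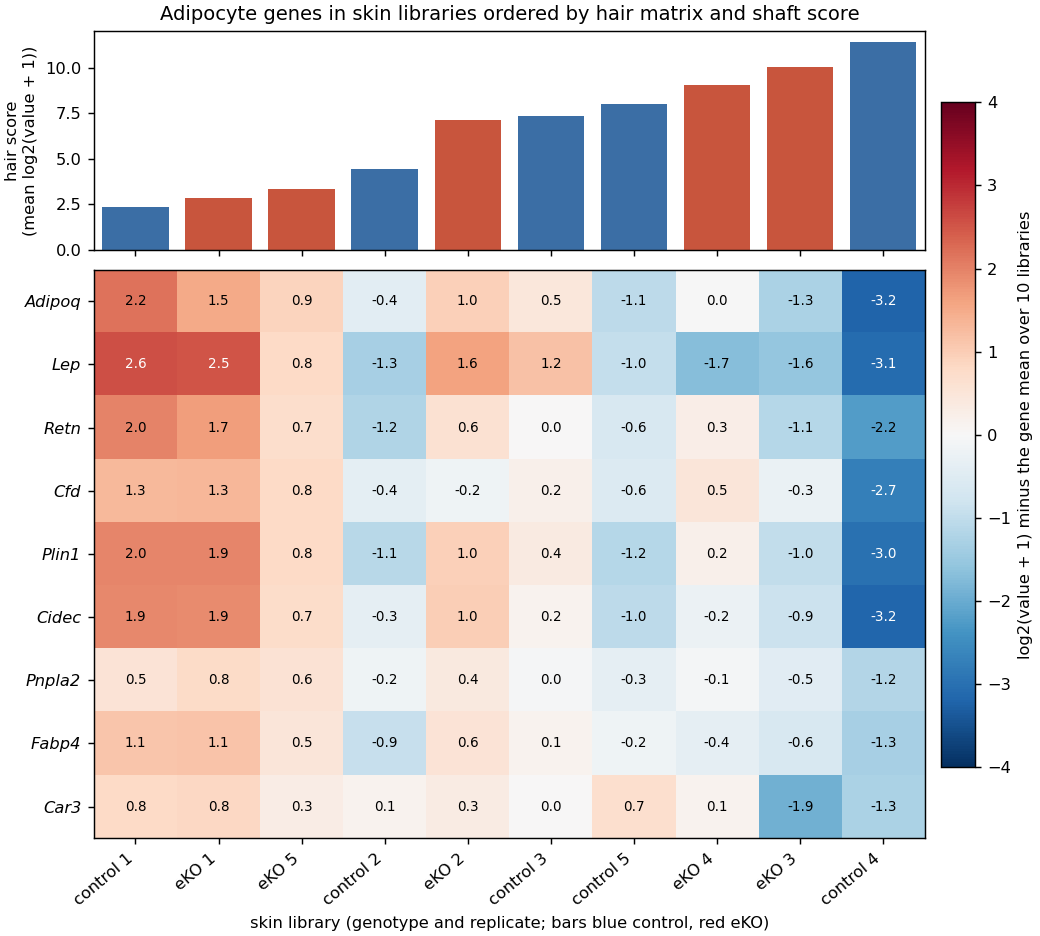
Skin libraries ordered by the hair matrix and shaft score (bars, mean log2(value + 1), blue control and red eKO) above the log2(value + 1) of 9 adipocyte genes minus each gene's mean over the 10 libraries. Values are highest in control 1 and eKO 1 at the low end of the score and lowest in control 4 at the high end, with eKO 3 lowest for Car3.

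Sorted HFSC held almost no adipocyte RNA. Adipoq, Cfd, Cidec and Retn, all with reads in every skin library, had 0 reads in each of the 6 libraries. Lipe was at 0 in both tissues and says nothing here. Adipoq had a median of 111 RPM in skin, at least 237-fold above the level that a floor of 3 reads in 1 HFSC library allows, Cfd was at least 178-fold above it, Cidec at least 272-fold and Retn at least 13.3-fold. The tables were normalised separately and the libraries prepared differently, so these bounds cover counting error only and carry no test. Car3, the most abundant of the set in skin at a median of 1790 RPM, had 0, 0 and 1 reads in the control and 3, 0 and 0 reads in the eKO libraries. Plin1 had 4 reads in eKO 1 and 0 elsewhere. Lep had 3, 11 and 0 reads in the control and 0, 24 and 0 reads in the eKO libraries, so its reads came from 2 of the 3 control libraries and 1 of the 3 eKO libraries.

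Pnpla2 was the exception that was seen in every HFSC library, with 55, 50 and 44 reads in the control and 47, 54 and 47 in the eKO group. Normalised counts averaged 50.5 ± 5.73 (SD, n = 3) for control and 48.3 ± 11.9 (SD, n = 3) for eKO HFSC. The fitted log2 value was -0.09 (SE 0.36, 95% interval -0.87 to 0.69, limma adjusted p 0.896). Summed over the 10 genes, RPM were 8.64, 11.4 and 7.43 in the control and 14.6, 15.7 and 15.2 in the eKO libraries, against 939 to 5981 in skin.

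**Figure D5:**
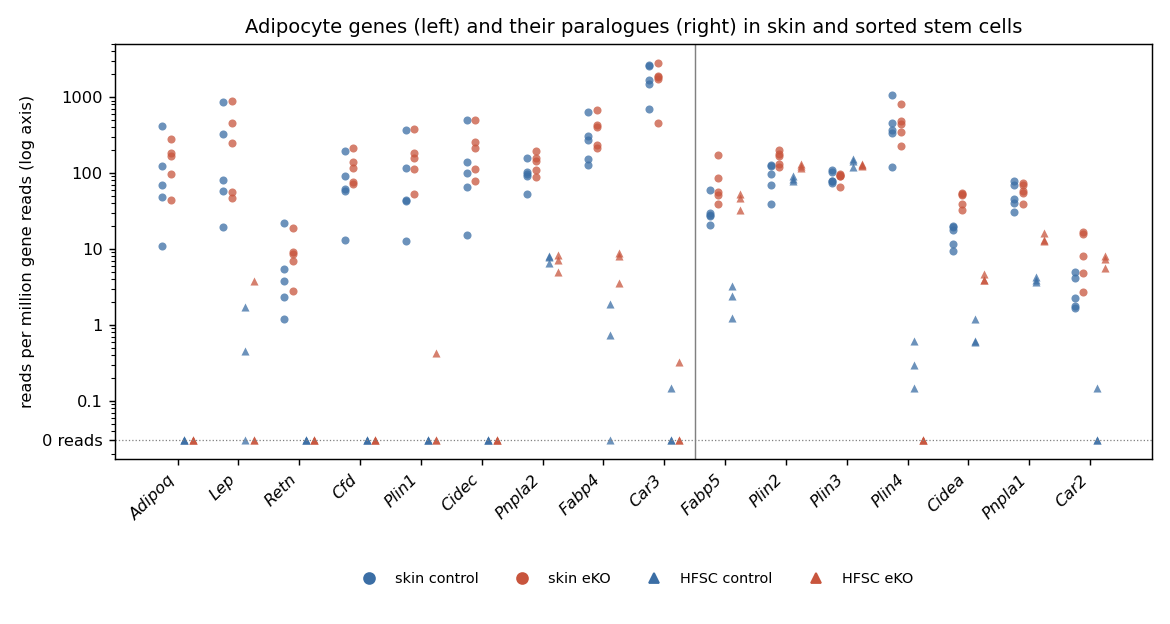
RPM (log axis, libraries with 0 reads on the dotted line) of 9 adipocyte genes and 7 of their paralogues in each skin library (circles) and HFSC library (triangles), control in blue and eKO in red. All skin values of the 9 genes lie above all their HFSC values, and among the paralogues Plin3 lies higher in all HFSC libraries (120 to 151) than in all skin libraries (64.8 to 109).

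Fabp4 was the only member of the set called in HFSC, where 1 of 2 tested genes was called and 19.4% of all 13784 genes were (10.7% upward). It had 0, 12 and 5 reads in the control and 83, 23 and 53 reads in the eKO libraries, and the groups did not overlap, as for 36.3% of all genes tested. Normalised counts averaged 5.87 ± 6.36 (SD, n = 3) for control and 48.2 ± 20.2 (SD, n = 3) for eKO HFSC. The fitted log2 value was 3.40 (SE 0.89, 95% interval 1.47 to 5.33, limma adjusted p 0.0179). Fabp4 passed the filter on low values through the eKO libraries alone, so the filter favoured this upward call. Nor does the call say anything of the other genes of the set. The call was lost without eKO 1 (3.16, limma adjusted p 0.0613) and without eKO 3 (3.24, limma adjusted p 0.0667), and over all alternatives the adjusted p ran from 0.00172 to 0.0667.

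Markers of other cells moved with it. The summed count of 11 endothelial genes was 58.8, 71.5 and 56.0 in the control and 1206, 1209 and 1370 in the eKO libraries, and 2 of the 11 were at 0 in all eKO libraries. Of 9 tested genes 8 were called upward, but 7 of these passed the filter through the eKO libraries alone, so the filter favoured this tally. The summed count of 12 sebaceous gland genes was 3500, 3635 and 3632 against 13964, 14766 and 13890. Of 10 tested 7 were called upward, all 7 having passed the filter in both groups. The summed count of the hair matrix and shaft list was 602 to 670 against 2413 to 2751. Of its 9 tested genes 8 were called upward, 3 of them through the eKO libraries alone. Of dermal fibroblast genes 2 of 4 were called upward, 1 through the eKO libraries alone. Of leukocyte genes 1 of 3 was called downward, through the control libraries alone. Over all genes 10.7% were called upward and 8.74% downward. Of the set itself, Adipoq, Cidec, Cfd and Retn had 0 reads in the same eKO libraries. Lep had 0, 24 and 0 reads there, Plin1 4, 0 and 0, and Car3 3, 0 and 0. Pnpla2 had reads in each of them. The part of RNA of the other cells named here in the Fabp4 value was not tested. The difference between the genotype effect in HFSC and that in skin was 2.92 for Fabp4 (SE 0.96, limma adjusted p 0.0882). For Pnpla2 it was -0.57 (SE 0.45, limma adjusted p 0.503). Fabp4 entered the HFSC test through the eKO libraries alone, so the filter favoured its positive difference. By the threshold 0 of 2 were called, where 5.62% of 13227 genes were, 1 of 2 had an unadjusted p under 0.05 beside 21.3% of all genes, and edgeR also called 0. Without HFSC control 2 the difference for Fabp4 was 3.75 and was called (limma adjusted p 0.0317), and the alternatives spanned adjusted p-values of 0.0317 to 0.225.

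Of 12 paralogues of these genes, 7 could be tested in HFSC and 5 were called upward in eKO, where 10.7% of all genes were. Car2, Cidea and Fabp5 passed the filter on low values through the eKO libraries alone (fewer than 3 control libraries reached 10), so the filter favoured upward calls. Plin2 and Pnpla1 passed it in both groups. Fabp5, the fatty acid binding protein of epidermal keratinocytes, rose on average from 15.5 ± 6.80 to 312 ± 74.8 (SD over 3 libraries each). The fitted log2 value was 4.31 (SE 0.38, limma adjusted p 7.75e-06). Pnpla1, a relative of Pnpla2 needed for the lipids of the skin barrier, rose from 26.7 ± 2.07 to 99.3 ± 12.8 (1.85, SE 0.33, limma adjusted p 0.00198), and Plin2, the perilipin of most cell types, from 567 ± 45.9 to 876 ± 55.7 (0.63, SE 0.12, limma adjusted p 0.00334). Car2, a cytosolic carbonic anhydrase like Car3, had 1, 0 and 0 reads in the control and 52, 52 and 49 in the eKO libraries (limma adjusted p 5.86e-04). Plin3 and Pnpla3 were tested and not called, at -0.06 (limma adjusted p 0.791) and -0.46 (limma adjusted p 0.478). Plin4, Plin5, Cideb, Retnla and Car1 were too low in HFSC to be tested.

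In skin 11 of the 12 paralogues were tested and 1 was called, where 0.229% of all genes were called upward. DESeq2 also called Fabp5 and Car2, so 3 of 11, where it called 3.99% of all genes in either direction. Cidea, a relative of Cidec known from brown fat and from sebaceous glands, was at 229, 211, 142, 102 and 222 in the control and 574, 457, 558, 630 and 389 in the eKO libraries. All eKO libraries were above all control libraries, and the fitted log2 value was 1.57 (SE 0.24, limma adjusted p 0.0308). In HFSC Cidea rose from 5.40 ± 2.25 to 29.5 ± 3.36 (SD, n = 3 each), by 2.30 (SE 0.63, limma adjusted p 0.0218). Sebaceous gland genes moved with it in skin, with 2 of 12 called upward and a summed count of 20669 to 71617 in the control and 59531 to 97323 in the eKO libraries, and their part in Cidea was not tested. The skin call was lost under 8 of 20 alternatives, namely without control 2, control 3, eKO 1, eKO 3, eKO 4 or eKO 5, without control 5 and eKO 3 together, and with the skeletal muscle score as a covariate. Ucp1, the uncoupling protein of brown and beige fat, had at most 3 reads in any skin library and 0 in HFSC.

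The wider fat cell programme was read from 8 lists. Of 9 transcription factors, 0 of 9 were called in skin, with a median log2 fold change of 0.29. Counts of Pparg, the master regulator of fat cell formation, averaged 320 ± 208 (SD, n = 5) for control and 529 ± 144 (SD, n = 5) for eKO skin (0.90, SE 0.37, limma adjusted p 0.304). The count was 1 of 10 for further droplet proteins (Cidea), 0 of 9 for lipolysis, 0 of 12 for fatty acid uptake and triglyceride assembly, 0 of 7 for further adipokines, 0 of 6 for receptors of adipokines and insulin, 0 of 7 for precursors and 0 of 5 for brown and beige fat. The medians were 0.18, 0.40, 0.35, 0.54, -0.16, 0.22 and 0.06 in that order, beside 0.00 for all genes. At an unadjusted p under 0.05 the 8 lists in this order held 3, 2, 1, 2, 0, 1, 0 and 1 genes, beside 14.2% of all genes tested. The edgeR test called Cidea alone, and DESeq2 called Cidea, Cebpb, Mgll, the lipase of monoglycerides, and Irs1, an adaptor of the insulin receptor, where 3.99% of all genes were called by that tool. On the hair score, Plin4, Acvr1c, a receptor that restrains lipolysis, and Rbp4, the retinol carrier, were called downward, at -0.25 (limma adjusted p 0.0267), -0.35 (limma adjusted p 0.0275) and -0.27 (limma adjusted p 0.0345). Each of these 3 calls was lost without control 1, control 4, eKO 1 or eKO 3 and without control 5 and eKO 3 together, and that of Rbp4 also without control 5.

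In HFSC calls were made in 7 of the 8 lists, beside a background of 19.4% of all genes in either direction and 8.74% downward. Cebpb, Cidea, Cd36, Lpl and Lepr passed the filter through the eKO libraries alone and Dlk1 through the control libraries alone, so the filter favoured the direction of these 6 calls. The other genes called here passed it in both groups. Of the 6 transcription factors tested, Cebpa rose (1.28, SE 0.20, limma adjusted p 6.92e-04), as did Cebpb (2.39, SE 0.65, limma adjusted p 0.0222), and Klf15 fell by 0.63 (limma adjusted p 0.00874). Cd36, a fatty acid carrier of fat cells, capillaries and sebocytes, rose from 8.59 ± 6.54 to 147 ± 7.11 (SD, n = 3 each), by 4.19 (SE 0.52, limma adjusted p 1.23e-04). Lpl, the lipase that frees fatty acids from lipoproteins, had 0, 4 and 0 reads against 52, 19 and 17 (3.89, SE 0.97, limma adjusted p 0.0142), and Gpam, the first enzyme of glycerolipid assembly, rose by 0.73 (limma adjusted p 0.0158), so that 3 of 9 genes of uptake and assembly were called upward. Abhd5, the activator of Pnpla2, rose by 0.42 (limma adjusted p 0.0316), as 1 of 6 lipolysis genes. Plin2 and Cidea made up the 2 of 6 droplet proteins.

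Among the 4 adipokines tested in HFSC, Angptl4, an inhibitor of Lpl, rose from 125 ± 8.47 to 649 ± 67.6 (SD, n = 3 each), by 2.36 (SE 0.17, limma adjusted p 1.19e-06), and Nampt fell by 0.68 (limma adjusted p 0.0141). Of the 6 receptors, the leptin receptor gene Lepr had 1, 0 and 0 reads in the control and 23, 13 and 89 in the eKO libraries (limma adjusted p 0.00723), and the insulin receptor gene Insr fell by 0.53 (limma adjusted p 0.00874). Of the 5 precursor genes tested, Ly6a, a surface protein of stromal and endothelial cells, rose by 1.67 (SE 0.25, limma adjusted p 4.80e-04). Dlk1, a marker of early precursors, went from 84.3 ± 18.0 to 1.80 ± 1.63 (SD, n = 3 each; limma adjusted p 2.73e-04). By limma and by edgeR 0 of 3 brown and beige genes were called, with 2 of 3 at an unadjusted p under 0.05 beside 32.8% of all genes, and DESeq2 called 1, Dio2, where it called 21.9% of all genes. Of the 5 precursor genes DESeq2 called all, adding Dpp4, Icam1 and Cd24a. The calls for Cebpb and Cidea were each lost under 4 of 13 alternatives, that for Abhd5 under 5, that for Nampt under 3 and those for Klf15, Lpl, Gpam and Insr under 1. Those for Cebpa, Plin2, Cd36, Angptl4, Lepr, Dlk1, Ly6a, Fabp5, Pnpla1 and Car2 held under all 13. The summed endothelial, sebaceous and hair matrix and shaft counts given above also rose in the eKO libraries.

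The genes outside the set whose pattern over the 10 skin libraries was most like that of Adipoq were Abcd2 (Pearson r 0.990), Thrsp (0.982), Mrap (0.980), Aoc3 (0.979), Pfkfb3 (0.972), Dram1 (0.970), Rbp4 (0.969), Plin4 (0.966), Klhdc7a (0.965) and Trf (0.964). The measure was Pearson's r of log2(value + 1), and the median over 16588 genes was 0.0284. Of the set itself, Cidec ranked 2, Plin1 4, Pnpla2 14 and Retn 21, while Cfd, Lep and Fabp4 ranked 55, 61 and 62 and Car3 782 (r 0.733). Abcd2, a peroxisomal transporter of long fatty acids, was at 1586, 468, 648, 124 and 326 in the control and 1381, 748, 263, 479 and 758 in the eKO libraries. All 10 were lowest in control 4, as Adipoq was, which is no further observation since they were chosen by likeness to Adipoq over these libraries. In HFSC they parted: Mrap, an accessory protein of the melanocortin receptors, had 0 reads in all 6 libraries, Abcd2 and Klhdc7a at most 1, Rbp4 at most 2 and Plin4 at most 4, whereas Dram1 had 462 to 591, Pfkfb3 200 to 378, Trf 51 to 168, Aoc3 47 to 89 and Thrsp 7 to 16.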

How the data were processed

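Bulk RNA sequencing was available for 16 libraries, 10 of skin and 6 of HFSC. The authors deposited 1 table per tissue, and its values are a signal: gene read counts divided by 1 size factor per library, as the values show, since whole reads were recovered for 100% of nonzero values within a tolerance of 0.01. The submitters' processing notes name featureCounts and DESeq2 for skin and GRCm39 for both tissues. The aligner, annotation and treatment of strand, and the counting tool for HFSC, are not given in the sources used here. Identifiers were named through the GENCODE M21 list, which matched 94.1% of skin and 91.4% of HFSC rows. No column of per-sample values was left unused.

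Values were tested in limma 3.58.1 (trended) after log2(value + 1). Genes entered if 5 skin libraries, or 3 HFSC libraries, reached 10, with Benjamini-Hochberg adjustment over all genes tested and a threshold of 0.05. The design gave the edgeR test for raw counts and limma for normalised values, and the deposited unit called for limma. A fold change on this scale understates the change of low genes. The hair score was the mean log2(value + 1) of 15 of 16 listed genes, as Krt85 had no match in the name list. The difference between tissues was a contrast of 4 group means on genes tested in both tables. The ratio of Lep to Adipoq was tested by exact permutation. The scripts were tested on simulated data.

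Alternatives were edgeR 4.0.16 and DESeq2 1.42.0 on recovered reads, library size scaling, pseudocounts of 0.5 and 5, no filter, leaving out each library or control 5 with eKO 3, covariates, and a block on the HFSC replicate number. The text names all 10 genes, genes of other lists past the threshold (at most 8 per list), the paralogues, the 10 genes most like Adipoq, and Grk2. Pparg, Ucp1, Ddx3y, the genes called by DESeq2 alone and those listed at 0 were added after their values were seen. The genes and lists were chosen with earlier results of these data known. Floors of 3 reads and their bounds cover counting error only.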

Additional observations from a re-analysis of the deposited data

Results flagged for a closer look

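Car3 in eKO skin had 1 library far from the other 4: eKO 3 was at 12.23 on the log2(value + 1) scale, and its gap to the nearest library was 0.746 of the range of the group. Of 40 groups of values examined this way, chance alone sets apart about 1 in 20. The summed skeletal muscle count was also lowest in this library, and its part was not tested.

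For 8 genes of the fat cell lists the genotype effect differed between HFSC and skin by the limma contrast (adjusted p under 0.05, as for 5.62% of all genes). Of genes tested in both tissues these were 1 of 6 transcription factors, 2 of 9 for uptake and assembly, 1 of 6 receptors, 1 of 4 precursors and 3 of 7 paralogues. The counts were 0 of 6 for droplet proteins, 0 of 6 for lipolysis, 0 of 4 for adipokines and 0 of 3 for brown and beige fat. Some genes are on more than 1 list. The HFSC effect minus the skin effect was 4.81 for Lepr, 3.83 for Car2, 3.80 for Cd36, 3.50 for Lpl, 3.16 for Fabp5, 1.67 for Pnpla1, 1.62 for Ly6a and 0.91 for Cebpa, on the log2(value + 1) scale. Lepr, Car2, Cd36, Lpl and Fabp5 passed the HFSC filter on low values through the eKO libraries alone, so the filter favoured their upward HFSC effect. For Lepr and Car2, whose control HFSC libraries held at most 1 read, the size depends on the pseudocount. The calls for Cebpa and Lpl were lost under 10 and 13 of 19 alternatives, and that for Car2 with a pseudocount of 5.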

How the results depend on the processing

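No adipocyte gene was called in skin under any of the 20 alternatives run there, and 7 of the 9 genotype values kept their sign. Leaving out 1 library took Lep from -0.03 (without control 4) to 1.38, and it was -0.34 given the level of Adipoq. The value of Car3 ran from -0.53 to 0.49, or from -0.47 to 0.33 over single libraries left out, and was positive without control 1 (0.05), control 5 (0.01) or eKO 3 (0.33), without control 5 and eKO 3 together (0.48), and with the muscle score (0.49). The cause was not tested. Leaving out 1 library left 0 to 1 called genes in HFSC (0 without eKO 1 or eKO 3), where Pnpla2 ran from -0.25 to 0.11 (the latter without eKO 1). It left 1 to 8 for the hair score, and 0 to 1 for the difference between tissues (1 without HFSC control 2, an alternative chosen after seeing the data). The hair score count was 7 without keratin genes and 1 without control 5 and eKO 3, also chosen after seeing the data. For the ratio of Lep to Adipoq the range was -0.45 to 0.22. With library size scaling the HFSC value of Fabp4 was 2.12, still called. Same-numbered HFSC libraries deviated with correlations of -0.0602, -0.018 and -0.0256. These values alone do not settle whether such libraries share more than a number. With the replicate block 1 HFSC gene was called, Fabp4 (3.40, limma adjusted p 0.0104), and the difference between tissues had 0 of 2 called. Over all genes DESeq2 called 3.99% in skin where limma called 0.374%, and 21.9% in HFSC where limma called 19.4%. DESeq2 called 5 of 5 precursor genes in HFSC where limma called 2. In HFSC 8 of the 10 genes were under the filter on low values and were not tested.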
